A study of Sus scrofa with 12 samples.

Results

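The transcripts of macrophages and monocytes were examined in the ventral annulus fibrosus of the porcine lumbar disc. The set was given as a list of 34 gene symbols. The pig gene name table and the count table together yielded 25 of these symbols, out of 22198 genes in the table. Hyperloaded pigs received bilateral manual loads of 400 N at the L3 vertebra under anesthesia, every 1 or 2 min for 4 h. Non-loaded Control pigs were anesthetized and received no manual load. All were Duroc cross pigs, aged 3 to 4 months, of mixed sex, with healthy discs. RNA came from the central ventral wedge of the L3-4 annulus, and there were 6 Hyperloaded libraries from 4 pigs and 6 Control libraries from 6 pigs. The extra Hyperloaded libraries were powdered and purified apart from the same pigs. The sources used here do not say which libraries these are, so all 12 were taken as separate and p-values are too small to that extent.

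Macrophages and monocytes are phagocytes of the myeloid lineage, whose identity depends on the transcription factor PU.1, the product of SPI1. Signals from the growth factor receptor CSF1R keep them alive, scavenger and pattern receptors such as MSR1, MRC1 and CD14 take up or sense particles, and adaptors such as TYROBP and FCER1G pass receptor signals to the kinase SYK. The healthy annulus holds few vessels and few leukocytes, and macrophages are known to enter it when it is injured or herniates.

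PU.1 binds a purine-rich core, GAGGAA, so the DNA around the gene starts of the members was searched for it. Windows ran from 250 bases before to 50 bases after the start of each gene in RefSeq's annotation of Sscrofa11.1, and all 25 members had a window. The core was found on either strand in 14 of the 25 windows (56.0%), against 2104 of 7883 tested genes with a symbol (26.7%) and 5058 of 19505 protein-coding genes (25.9%). The longer form GAGGAAGT, which contains the core, was in 4 of the 25 windows (16.0%), against 2.26% of tested genes. The CCAAT box was in 36.0% of member windows, against 35.7% of tested genes, and the TATA box TATAAA in 1 window, that of MSR1, against 7.31% of tested genes. These shares describe letters in a window and were not tested. The windows below belong to 5 of the 6 members with the smallest p that hold the core, and are shown so that the core can be seen in place. They are printed 5′ to 3′ on the strand of the gene, and the capitals mark the core, which reads TTCCTC where it lies on the other strand.
MSR1: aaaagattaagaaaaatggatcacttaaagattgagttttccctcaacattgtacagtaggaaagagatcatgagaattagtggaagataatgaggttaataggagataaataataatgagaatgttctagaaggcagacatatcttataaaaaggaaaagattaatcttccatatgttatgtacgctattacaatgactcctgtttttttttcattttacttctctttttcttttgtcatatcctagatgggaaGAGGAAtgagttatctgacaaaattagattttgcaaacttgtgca
PLEK: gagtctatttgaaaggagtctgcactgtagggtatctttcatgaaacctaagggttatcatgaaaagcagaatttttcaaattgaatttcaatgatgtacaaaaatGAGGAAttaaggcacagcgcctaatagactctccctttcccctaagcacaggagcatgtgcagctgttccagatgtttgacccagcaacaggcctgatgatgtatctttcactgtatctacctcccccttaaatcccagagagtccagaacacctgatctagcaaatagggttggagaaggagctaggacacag
MS4A7: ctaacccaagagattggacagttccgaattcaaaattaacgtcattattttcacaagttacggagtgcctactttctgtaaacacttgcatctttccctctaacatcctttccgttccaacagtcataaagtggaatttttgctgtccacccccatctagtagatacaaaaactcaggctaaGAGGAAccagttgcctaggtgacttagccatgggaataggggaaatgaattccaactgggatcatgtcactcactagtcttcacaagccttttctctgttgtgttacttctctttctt
MRC1: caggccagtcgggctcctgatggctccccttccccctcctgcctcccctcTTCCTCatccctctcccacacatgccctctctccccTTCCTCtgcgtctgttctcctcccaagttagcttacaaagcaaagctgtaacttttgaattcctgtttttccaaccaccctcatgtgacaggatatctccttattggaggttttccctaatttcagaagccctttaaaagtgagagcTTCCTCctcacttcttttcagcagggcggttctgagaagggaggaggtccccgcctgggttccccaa
CD86: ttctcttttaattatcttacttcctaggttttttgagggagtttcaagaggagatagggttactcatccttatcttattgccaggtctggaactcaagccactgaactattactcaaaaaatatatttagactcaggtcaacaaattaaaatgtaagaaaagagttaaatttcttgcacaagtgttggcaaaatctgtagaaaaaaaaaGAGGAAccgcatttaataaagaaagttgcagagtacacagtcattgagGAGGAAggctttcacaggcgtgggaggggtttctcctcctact
The window of MSR1 is chr17:3939563-3939862 (minus strand), that of PLEK chr3:73910114-73910413 (minus), that of MS4A7 chr2:11320235-11320534 (minus), that of MRC1 chr10:44107676-44107975 (plus) and that of CD86 chr13:138504258-138504557 (minus). MRC1 held 3 copies, all on the strand opposite to the gene, CD86 held 2, and MSR1, PLEK and MS4A7 held 1. No core was found in the windows of CD83, SRGN, CSF1R, PTPRC, CD68, CD14, LCP1 or LCP2, which says only that these letters are not there. The positions were matched by symbol and had no role in the counts.

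Of the 25 measured members, 22 had at least 10 counts in every library of a group, the rule by which genes entered the test. Of the 22, 18 were higher in Hyperloaded libraries (81.8%), 0 were lower and 4 did not pass, at an adjusted p under 0.05 from the quasi-likelihood test of edgeR. Over all 12597 genes tested, 10.8% were called higher and 8.45% lower. The median log2 fold-change of Hyperloaded over Control was 1.90 over the 22 members, against 0.005 over all genes tested. Every Hyperloaded library stood above every Control library for 13 of the 22 members, which was so for 3.81% of all genes tested. With the cut-offs of the study (p up to 0.01 before adjustment, 2-fold or more), 17 members were higher, against 5.89% of all genes tested. Because 7 members (MSR1, TYROBP, FCER1G, NCF1, LCP2, FCGR1A and MS4A7) passed the count minimum through the Hyperloaded group alone, these counts favour members that were high there. Of the 15 members that passed in both groups, 13 were called higher, but the matching share over all genes was not computed. With no count minimum, 20 of all 25 measured members were higher and 0 lower, against 7.53% and 4.85% of 19019 genes. In bulk tissue, a larger number of cells of a type and more RNA per cell cannot be told apart.

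Hyperloaded replicates 2, 3 and 6 held skeletal muscle transcripts, and their removal changed the count of calls. The summed CPM of 5 measured muscle markers was 31950, 875.6 and 3449 in these libraries, from 24.61 to 90.31 in the other Hyperloaded libraries and from 6.872 to 151.9 in the Control libraries. Without these 3 libraries, the mature-cell marker CD83 was the 1 member called higher (adjusted p = 0.0137 from edgeR), 0 were lower, and 1% of 12698 genes were called higher. All 22 log2 fold-changes remained positive there, with a median of 1.69, and 20 members had an unadjusted p under 0.05, against 11.9% of genes higher by that measure. PLEK and MS4A7 moved most, to log2 fold-changes of 1.67 and 2.11 (adjusted p = 0.0569 and 0.102 from edgeR). All 15 choices of 4 of the 6 Hyperloaded libraries were also fitted, because 4 pigs gave 6 libraries. In these, 9 to 20 members were called higher and 0 lower. Replicates 1, 2, 4 and 5 gave 9 members, with 260 genes called higher over all genes. Replicates 2, 3, 4 and 6 gave 20 members, with 2139 genes called higher. Choices without replicate 5 gave 19 or 20 of 23 or 24 tested members, and those with it 9 to 18 of 22. The calls over all genes moved the same way, with 1214 to 2139 genes called higher without replicate 5 and 260 to 1355 with it.

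**Figure D1:**
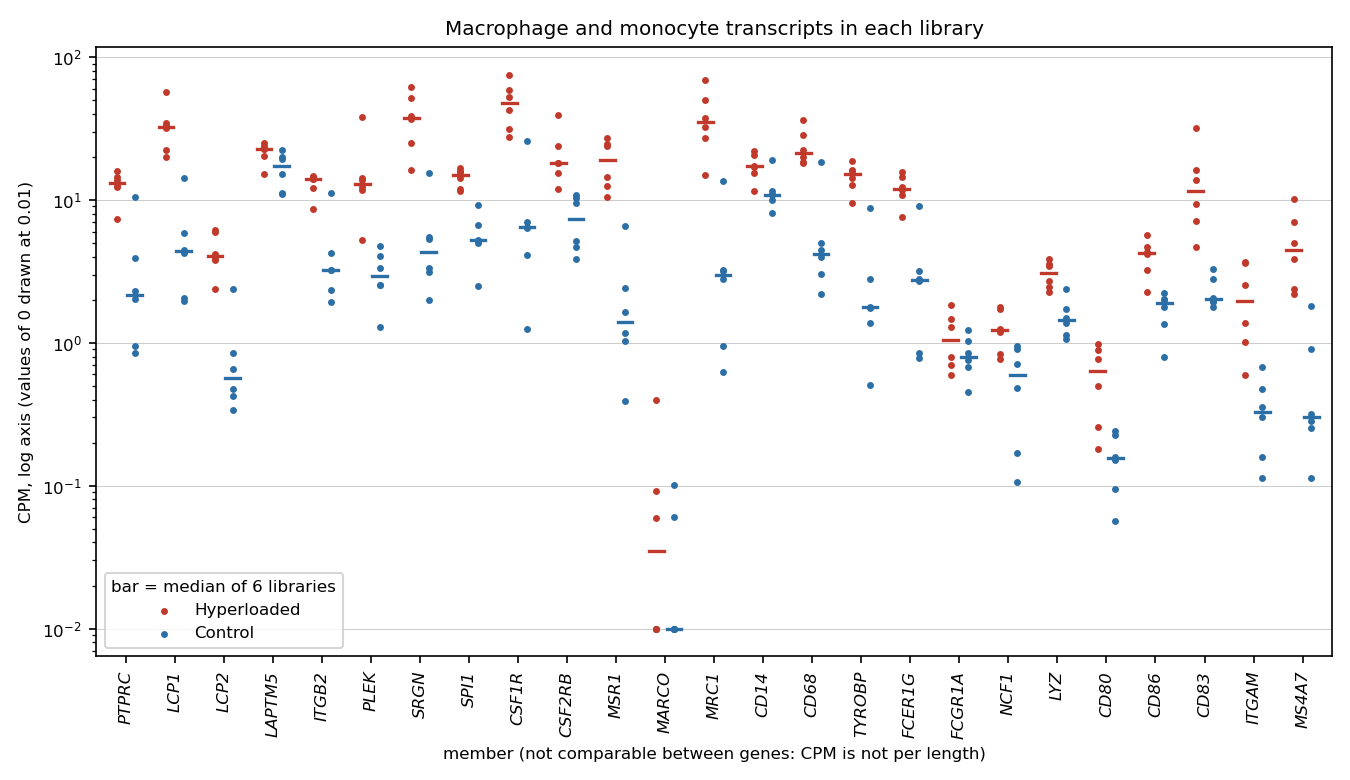
Level of each of the 25 measured members in CPM on a log axis, with 1 point per library, Hyperloaded in red left of Control in blue, and a bar at the median of 6 libraries. The red points of MSR1, SRGN, SPI1 and CSF1R all lie above the blue ones, the points of CD14, LAPTM5 and FCGR1A overlap, and MARCO is near 0 in both groups.

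MSR1, SPI1, CD83 and SRGN, which head the list, had counts in every library, at least 7 for MSR1. They are members themselves, so this is no independent check of the cell type. Levels are given in CPM, counts divided by a library size that was adjusted by TMM factors, and they are not comparable between genes because CPM is not per length. For each group the lowest, the median and the highest of its 6 libraries are given in that order. Of the matrix genes of the labelled tissue, the cartilage collagen COL2A1 averaged 49410 CPM in Hyperloaded and 290400 CPM in Control libraries. The fibrous collagen chain COL1A2 averaged 167800 and 111300 CPM. Summed chondrocyte markers ran from 4497 to 162500 CPM in Hyperloaded and from 134000 to 685900 CPM in Control libraries. The wedges were therefore not alike in these genes, within or between groups.

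SPI1 (ENSSSCG00000013237), the gene of PU.1, had 11.5, 14.96 and 16.7 CPM in Hyperloaded libraries, against 2.48, 5.22 and 9.21 CPM in Control libraries. Every Hyperloaded library was above the highest Control library, replicate 1. The log2 fold-change was 1.33 with a standard error (SE) of 0.24 (adjusted p = 0.00719 from edgeR). CSF1R, the receptor of the macrophage growth factors CSF1 and IL34, had 27.4, 47.5 and 75.2 CPM in Hyperloaded libraries, against 1.24, 6.41 and 25.7 CPM in Control libraries. These groups came close but did not overlap, and the log2 fold-change was 2.48 (SE 0.55, adjusted p = 0.0126 from edgeR). CSF2RB, the signalling chain shared by the receptors of GM-CSF, IL-3 and IL-5, had 11.9, 18.02 and 39.4 CPM, against 3.87, 7.32 and 10.9 CPM in Control libraries, with a log2 fold-change of 1.5 (SE 0.33, adjusted p = 0.0125 from edgeR). All 3 members of this group were higher and separated completely.

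MRC1 and MSR1, both scavenger receptors, had the 2 highest log2 fold-changes among the tested members. MRC1, the mannose receptor CD206, had 14.9, 34.8 and 69.6 CPM in Hyperloaded libraries, against 0.62, 2.99 and 13.6 CPM in Control libraries. Its log2 fold-change of 3.20 (SE 0.64, adjusted p = 0.00969 from edgeR) was the highest of the 22, a fold of 9.20. MSR1 (ENSSSCG00000006979), the class A scavenger receptor that binds modified lipoproteins, had 10.4, 19.1 and 27.0 CPM, against 0.394, 1.41 and 6.58 CPM in Control libraries. Its log2 fold-change was 3.04 (SE 0.53, adjusted p = 0.00637 from edgeR), and its lowest Control library held 7 counts. CD68, a glycoprotein of the phagocyte lysosome, had 18.01, 21.1 and 36.0 CPM, against 2.20, 4.21 and 18.3 CPM in Control libraries. It rose by a log2 fold-change of 1.93 (SE 0.45, adjusted p = 0.0152 from edgeR), although Control replicate 1 lay above the lowest Hyperloaded library.
CD14, the co-receptor of lipopolysaccharide on monocytes, did not pass the test. It had 11.5, 17.2 and 21.9 CPM in Hyperloaded libraries, against 8.05, 10.8 and 18.9 CPM in Control libraries, with a log2 fold-change of 0.56 (SE 0.21, adjusted p = 0.0729 from edgeR). Without Control replicate 1 CD14 was at 0.75 (adjusted p = 0.0204 from edgeR), without Hyperloaded replicate 2 at 0.65 (adjusted p = 0.0410), and it passed with DESeq2 (adjusted p = 0.0462) and limma voom (adjusted p = 0.0366). MARCO, another scavenger receptor, was below the count minimum, with 0 to 8 counts in Hyperloaded and 0 to 2 counts in Control libraries, so no difference was detectable at this depth (adjusted p = 0.346 from edgeR with no count minimum).

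TYROBP and FCER1G, the adaptors that carry activation motifs for SYK, both rose. TYROBP, also called DAP12, had 9.50, 15.2 and 18.7 CPM in Hyperloaded libraries, against 0.507, 1.77 and 8.79 CPM in Control libraries, with no overlap and a log2 fold-change of 2.33 (SE 0.51, adjusted p = 0.0123 from edgeR). FCER1G, the common gamma chain of Fc receptors, had 7.53, 12.0 and 15.6 CPM, against 0.789, 2.75 and 9.02 CPM in Control libraries. Control replicate 1 reached into the Hyperloaded range, and the log2 fold-change was 1.87 (SE 0.48, adjusted p = 0.0205 from edgeR). FCGR1A, the high-affinity receptor of IgG that needs FCER1G, had 0.597, 1.04 and 1.83 CPM, against 0.456, 0.80 and 1.23 CPM in Control libraries. Its log2 fold-change was 0.44 (SE 0.32, adjusted p = 0.326 from edgeR), and the groups overlapped over most of their range.

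Among the antimicrobial genes, LYZ, the gene of lysozyme, had 2.26, 3.08 and 3.85 CPM in Hyperloaded libraries, against 1.07, 1.44 and 2.37 CPM in Control libraries. It rose by a log2 fold-change of 0.97 (SE 0.22, adjusted p = 0.0142 from edgeR), the smallest change among the 18 members called. NCF1, a cytosolic subunit of the phagocyte NADPH oxidase, had 0.774, 1.22 and 1.77 CPM, against 0.106, 0.596 and 0.943 CPM in Control libraries. Its log2 fold-change of 1.18 (SE 0.43) did not pass (adjusted p = 0.0689 from edgeR), but it did with DESeq2 (adjusted p = 0.0327), limma voom (adjusted p = 0.0236) and library size scaling alone (adjusted p = 0.0485). LYZ, NCF1 and FCGR1A have close relatives in mammalian genomes, so their levels could include shared reads, which was not tested.

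CD83 (ENSSSCG00000021576), a surface protein of mature antigen-presenting cells, had the smallest p of the members. It had 4.71, 11.5 and 32.1 CPM in Hyperloaded libraries, against 1.79, 2.02 and 3.27 CPM in Control libraries, with a log2 fold-change of 2.57 (SE 0.41, adjusted p = 0.00539 from edgeR). The Control libraries lay close together and the Hyperloaded ones were spread widely, with replicate 3 highest and replicate 2 lowest. Without the 3 libraries for which no raw data were provided, Hyperloaded replicates 1 and 3 and Control replicate 6, the value of CD83 was 1.86 (adjusted p = 0.0163 from edgeR). CD86, a ligand of the T cell receptors CD28 and CTLA4, had 2.28, 4.27 and 5.71 CPM, against 0.796, 1.89 and 2.23 CPM in Control libraries, with a log2 fold-change of 1.26 (SE 0.27, adjusted p = 0.0118 from edgeR). CD80, the other ligand of these receptors, was below the count minimum at 3 to 17 counts in Hyperloaded and 1 to 6 counts in Control libraries. With no count minimum CD80 was higher by a log2 fold-change of 1.86 (SE 0.49, adjusted p = 0.0290 from edgeR).

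The general leukocyte genes gave 6 rises among 7 tested. SRGN (ENSSSCG00000023374), the proteoglycan serglycin of secretory granules, had 16.2, 37.6 and 61.4 CPM in Hyperloaded libraries, against 1.98, 4.34 and 15.5 CPM in Control libraries. The log2 fold-change was 2.70 (SE 0.48, adjusted p = 0.00650 from edgeR), and Control replicate 1 was again the highest of its group. LCP1, the actin-bundling L-plastin, had 19.9, 32.6 and 57.0 CPM, against 1.97, 4.36 and 14.3 CPM in Control libraries, with a log2 fold-change of 2.57 (SE 0.45, adjusted p = 0.00651 from edgeR). PLEK, the protein kinase C substrate pleckstrin, was at 5.22, 12.97 and 37.8 CPM, against 1.29, 2.94 and 4.74 CPM in Control libraries, and LCP2, the adaptor SLP-76, at 2.40, 4.02 and 6.14 CPM, against 0.338, 0.565 and 2.37 CPM. Both were separated completely, PLEK and LCP2 having log2 fold-changes of 2.36 and 2.30.
PTPRC, the leukocyte phosphatase CD45, had 7.36, 13.1 and 15.9 CPM in Hyperloaded libraries, against 0.845, 2.15 and 10.4 CPM in Control libraries. Hyperloaded replicate 5 lay below Control replicate 1, and the log2 fold-change was 1.86 (SE 0.51, adjusted p = 0.0270 from edgeR). It was the 1 call lost when a library was left out alone, since the adjusted p was 0.0567 without Hyperloaded replicate 6, 0.0624 without Control replicate 2 and 0.0576 without Control replicate 3. ITGB2, the beta chain of leukocyte integrins, had 8.63, 14.03 and 14.6 CPM, against 1.92, 3.24 and 11.12 CPM in Control libraries, with a log2 fold-change of 1.55 (SE 0.37, adjusted p = 0.0159 from edgeR). ITGAM, the alpha chain that pairs with ITGB2 in the receptor Mac-1, was below the count minimum at 0.599, 1.95 and 3.66 CPM, against 0.113, 0.328 and 0.676 CPM in Control libraries, and was higher with no count minimum (log2 fold-change 2.58, SE 0.52, adjusted p = 0.0141 from edgeR). LAPTM5, a lysosomal membrane protein of blood-derived cells, did not pass, with 15.2, 22.7 and 24.97 CPM in Hyperloaded and 11.0, 17.3 and 22.4 CPM in Control libraries (log2 fold-change 0.38, SE 0.19, adjusted p = 0.172 from edgeR). MS4A7, a membrane protein of macrophages, rose by 2.98 (SE 0.59, adjusted p = 0.00956 from edgeR), with 2.21, 4.43 and 10.2 CPM, against 0.113, 0.301 and 1.80 CPM in Control libraries.
Values were not analysed here for CYBB and ADGRE1, whose symbols are outside the name table, or for SIGLEC1, CYBA, AIF1, CD163, VSIG4, CORO1A and TREM2, whose identifiers matched no row of the counts. The paper lists coronin 1A, the product of CORO1A, among its up-regulated transcripts. A missing match here therefore does not mean that a gene was unmeasured.

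**Figure D2:**
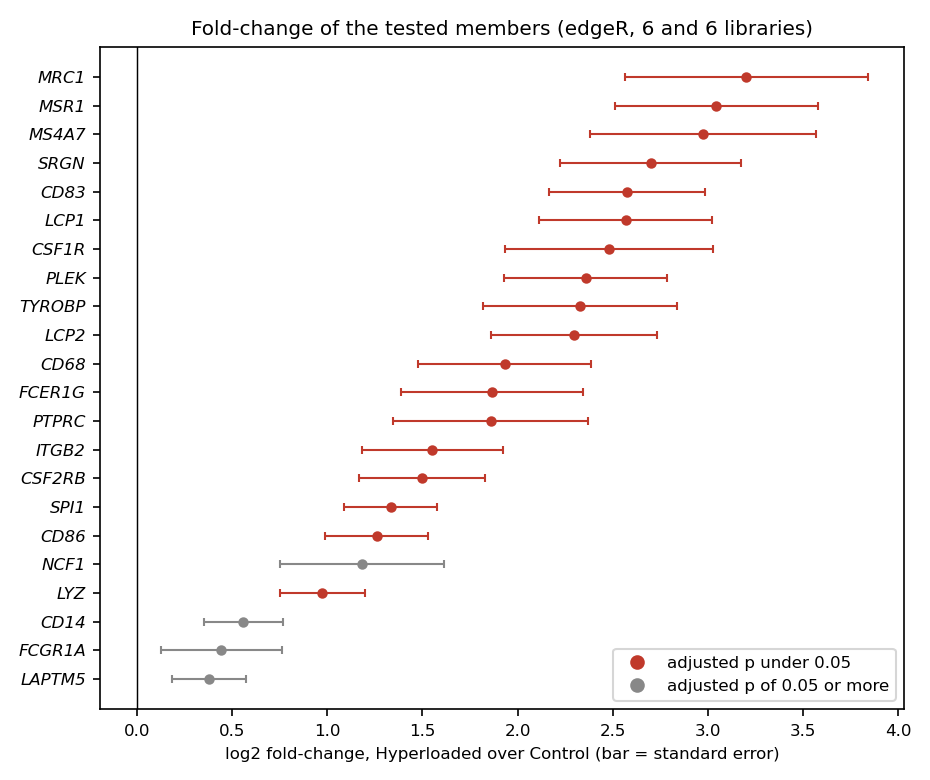
Log2 fold-change of Hyperloaded over Control for the 22 tested members, ordered by size, with bars for the standard error of the edgeR fit and grey points for an adjusted p of 0.05 or more. All 22 points lie right of 0, from 0.38 for LAPTM5 to 3.20 for MRC1, and the 4 grey points are NCF1, CD14, FCGR1A and LAPTM5.

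The members did not change by the same amount. Set against PTPRC within each library, the mean log2 ratio of FCGR1A differed by −2.02 (Hyperloaded minus Control), that of LAPTM5 by −1.93, that of CD14 by −1.77 and that of LYZ by −1.38. The ratio of MRC1 differed by 1.37, and for MRC1 alone among the 21 ratios the groups did not overlap, with 0.97 to 2.12 in Hyperloaded and −0.49 to 0.65 in Control libraries. The share of all genes whose ratio to PTPRC separated in this way was not computed, so this is not shown to be particular to MRC1. PTPRC held only 15 and 10 counts in Control replicates 4 and 5, which makes the ratios imprecise there. The ratios were computed after the values were seen and were not tested.

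Control replicate 1 stood apart from the other Control libraries in these genes. The measured members summed to 371.8, 296.2, 491.2, 431.7, 245.1 and 435.0 CPM in Hyperloaded replicates 1 to 6, and to 213.9, 81.32, 100.4, 51.93, 63.15 and 85.31 CPM in Control replicates 1 to 6. Control replicate 1 was the highest Control library for 19 of the 22 tested members, and Control replicate 4 the lowest for 15. In the Hyperloaded group replicate 5 was the lowest library for 11 members and replicate 3 the highest for 8. Without Control replicate 1, 19 members were called higher, the median log2 fold-change was 2.58, and the fold of 10 members moved by more than 1.5 times. MRC1 then stood at 4.13, MSR1 at 3.81, MS4A7 at 3.76, CSF1R at 3.24, SRGN at 3.29, TYROBP at 3.16, LCP2 at 2.97, CD68 at 2.68, PTPRC at 2.63 and FCER1G at 2.52. No other library moved a member's fold by more than 1.5 times when it was left out alone.

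**Figure D3:**
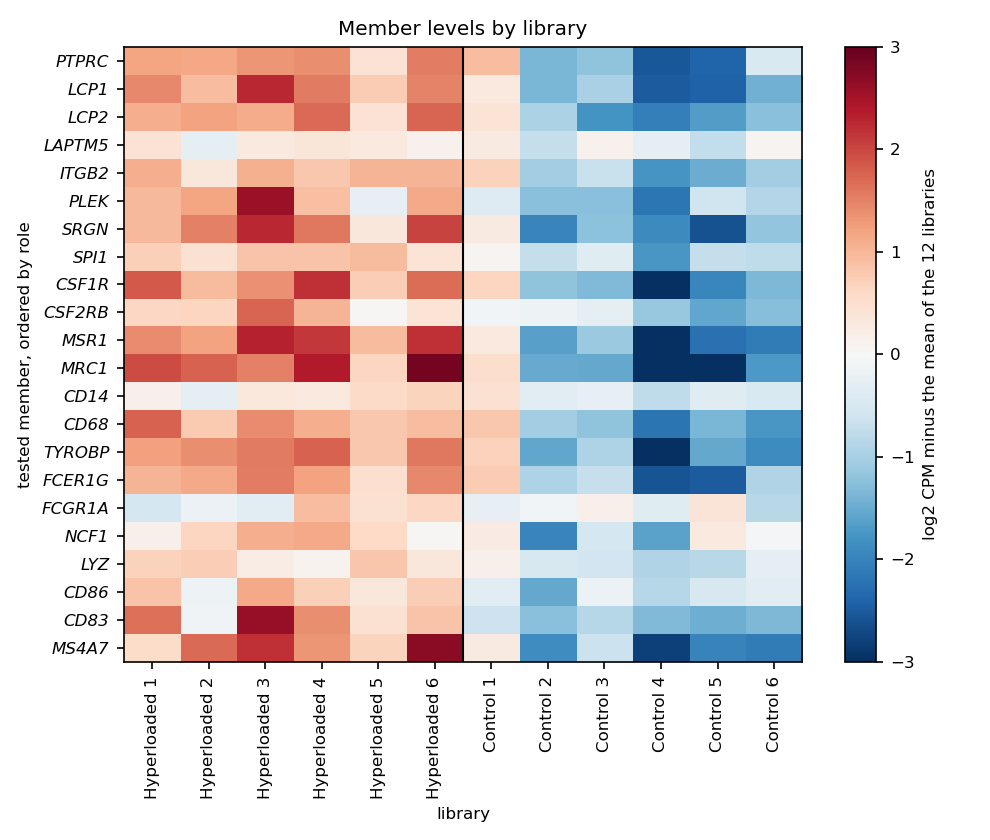
Log2 CPM of the 22 tested members (down the page, by role) in the 6 Hyperloaded and 6 Control libraries (across), as the difference from each member's mean over 12 libraries, with red above and blue below it. Control replicate 1 is pale red for most members while Control replicate 4 holds the darkest blues, and Hyperloaded replicate 5 is the palest library of its group.

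Within each group, the members were compared pair by pair over the 6 libraries, using Pearson's r of log2 CPM. In Hyperloaded libraries the median r over the 231 pairs was 0.291, and 28 pairs (12.1%) had an r of at least 0.8. In Control libraries the median r was 0.772, and 105 pairs (45.5%) reached 0.8. Over all 79335906 pairs of tested genes, the median was near 0 in both groups and 4.98% of pairs in Hyperloaded and 4.73% in Control libraries reached 0.8. The points of a pair share libraries and depth, and the Hyperloaded libraries also share pigs. With libraries scaled by size only, the medians were 0.546 in Hyperloaded and 0.855 in Control libraries. Without Control replicate 1 the Control median was 0.477, so the Control value depended on 1 library.
Exact permutation over the 720 pairings, 2-sided with adjustment over the 231 pairs, left 0 pairs under 0.05 in either group. The lowest adjusted p was 0.321 in Hyperloaded and 0.0583 in Control libraries (exact permutation), and 30 and 100 pairs had an unadjusted p under 0.05.
Over all 21 partners, the r of SPI1 ran from −0.620 (MRC1) to 0.699 (LAPTM5) with a median of −0.007 in Hyperloaded libraries, and from 0.230 (FCGR1A) to 0.962 (TYROBP) with a median of 0.837 in Control libraries. With the 5 partners chosen for testing it lay between −0.378 and 0.282 in Hyperloaded libraries and between 0.636 and 0.962 in Control libraries. With MSR1 its r was −0.050 in Hyperloaded libraries (rho −0.200, exact permutation p = 0.892, adjusted p = 0.971) and 0.958 in Control libraries (rho 0.943, exact permutation p = 0.0111, adjusted p = 0.0626). Leaving out the 2 libraries farthest from the median of SPI1, these became −0.082 and 0.891. With TYROBP the r was −0.275 in Hyperloaded and 0.962 in Control libraries (exact permutation p = 0.625 and 0.0111, adjusted p = 0.948 and 0.0626), with rho −0.371 and 0.943. Without the 2 farthest libraries these r were −0.202 and 0.959. With CSF1R it was −0.007 and 0.953 (exact permutation p = 0.989 and 0.0236, adjusted p = 1.0 and 0.0802), with rho −0.314 and 0.886, and the Control relation rested on the 2 farthest libraries, since r was 0.247 without them and −0.603 in Hyperloaded libraries. With CD14 it was 0.282 and 0.909 (exact permutation p = 0.603 and 0.0347, adjusted p = 0.948 and 0.0933), with rho 0.143 and 1.0, and 0.926 and 0.859 without the 2 farthest. With SRGN it was −0.378 and 0.636 (exact permutation p = 0.458 and 0.199, adjusted p = 0.868 and 0.296), with rho −0.257 and 0.371, and −0.101 and 0.414 without the 2 farthest. The difference between the groups in r was not tested. The log2 CPM of SPI1 ran from 3.54 to 4.07 in Hyperloaded and from 1.37 to 3.22 in Control libraries. A narrow range can lower r, and its part here was not tested.
The median r of LYZ with the other members was −0.606 in Hyperloaded libraries and 0.821 in Control libraries. Its lowest r was −0.950, with MSR1 in Hyperloaded libraries, and the highest r of any pair was 0.993, between LYZ and PTPRC in Control libraries. Both are extremes picked from the 231 pairs of a group, of which 0 passed after adjustment. The adaptors TYROBP and FCER1G kept an r of 0.860 in Hyperloaded and 0.854 in Control libraries. FCGR1A had a median r near 0 with the others in both groups, 0.041 and −0.001.

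**Figure D4:**
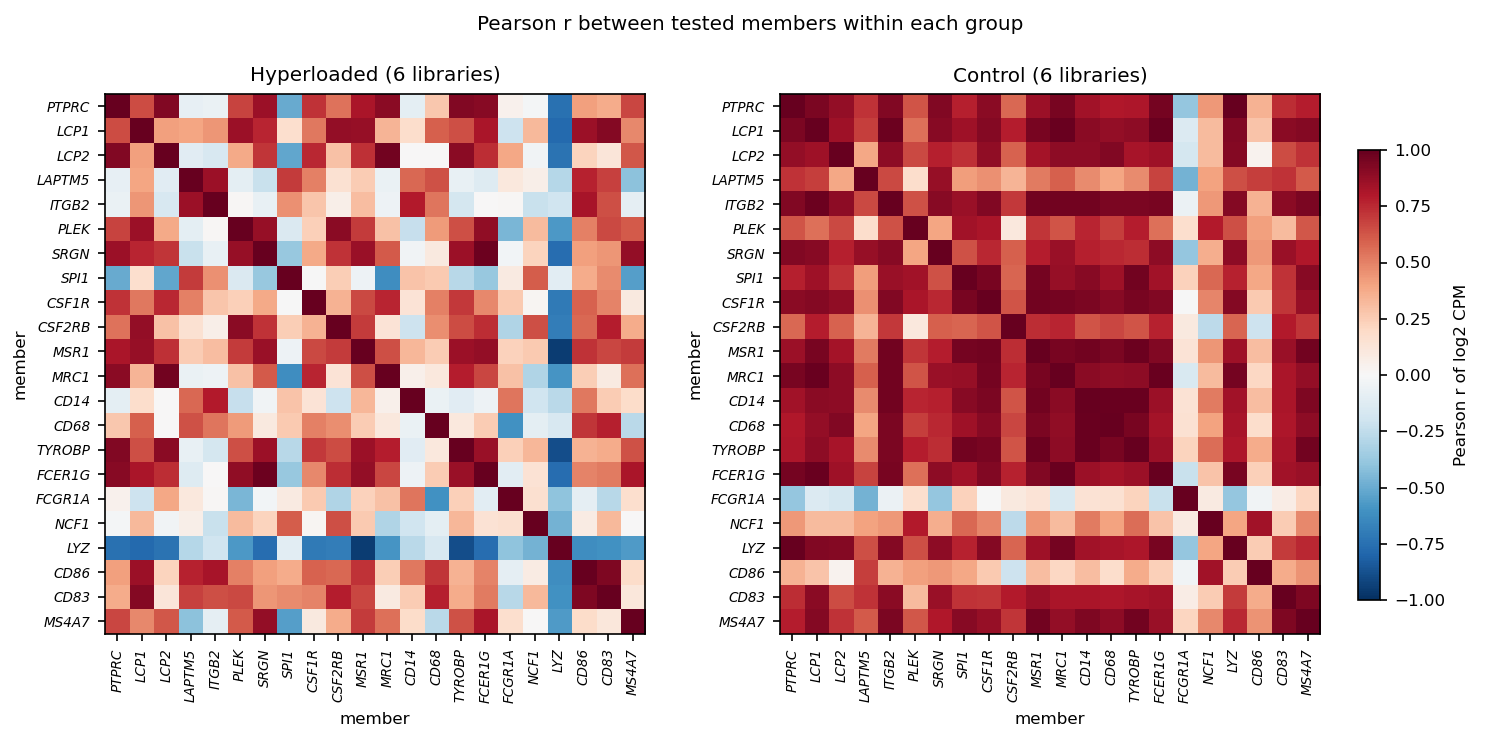
Pearson r of log2 CPM between the 22 tested members over the 6 Hyperloaded libraries (left) and the 6 Control libraries (right), red for positive and blue for negative. The Control panel is mostly red, with a median r of 0.772 and a pale band at FCGR1A, and the Hyperloaded panel is mixed, with a median of 0.291 and a blue band at LYZ.

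By the variation of log2 CPM around the mean of each group, over 12 libraries, the 10 named genes outside the set whose pattern was most like the mean of the members were C1QA, C3AR1, VAV1, CD53, PLXNC1, AMBN, PLD4, NCKAP1L, SCD5 and IL10RA, with r from 0.952 to 0.918. C1QA, a chain of the first complement component, had a log2 fold-change of 2.23, C3AR1, a complement receptor, of 2.50 and CD53, a leukocyte tetraspanin, of 2.84. These genes were picked for their likeness, so the r are a description.

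Other genes of the same pathways were taken from lists. Of 16 tested genes of ITAM and Fc receptor signalling, 7 rose and 0 fell by edgeR, and limma voom called 1 lower. PIK3AP1, an adaptor of PI 3-kinase, averaged 15.5 CPM in Hyperloaded and 4.05 CPM in Control libraries (log2 fold-change 1.93, adjusted p = 0.00576 from edgeR), NCKAP1L, a regulator of leukocyte actin, 4.73 and 1.10 CPM (2.05, adjusted p = 0.0104), and PTPN6, the phosphatase SHP-1, 6.83 and 1.81 CPM (1.88, adjusted p = 0.0115). The median over the 16 was 0.59. Of 12 genes of the phagocyte oxidase and lysosome, 8 rose and 0 fell, with a median of 0.72. They included LIPA, the lysosomal acid lipase (log2 fold-change 1.36), NCF4, an oxidase subunit (1.13), and CTSS, cathepsin S (1.38). Of 5 tested myeloid transcription factors outside the set, IRF5 rose by 1.63 and CEBPA by 1.28, and FLI1, which endothelium also uses, fell by 0.61. The 1 tested myeloid growth factor receptor gene, CSF3R of granulocytes, did not pass (log2 fold-change 2.51, SE 0.96, adjusted p = 0.0789 from edgeR).
Of 10 tested genes of resident macrophages, 6 rose and 0 fell, with a median log2 fold-change of 1.34. F13A1, the coagulation factor XIII subunit, rose by 1.90, LYVE1, a hyaluronan receptor that lymphatic vessels share, by 2.68, and APOE, apolipoprotein E, by 1.26. Of 5 tested blood monocyte genes, 2 rose and 0 fell. The chemokine receptor CCR1 averaged 13.2 CPM in Hyperloaded and 1.44 CPM in Control libraries (log2 fold-change 3.16, adjusted p = 0.00539 from edgeR) with no overlap, the receptor TLR2 had a log2 fold-change of 1.32, and the matrix proteoglycan gene VCAN, at 0.66, did not pass. VCAN and APOE are also made by cells of connective tissue. With no count minimum, genes of these lists that were also higher by edgeR included the fractalkine receptor CX3CR1 of monocytes (2 to 25 counts in Hyperloaded and 0 to 2 in Control libraries, log2 fold-change 3.12, adjusted p = 0.0156) and DOCK2, a regulator of leukocyte migration (2.32, adjusted p = 0.0304).

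Other cell types that a wedge could hold moved in different ways, and their part in the members' levels was not tested. Of 3 tested lymphocyte genes, NKG7 (log2 fold-change 2.37) and CD247 (1.95) rose and CD5 (0.79, adjusted p = 0.138 from edgeR) did not pass. The sum over the lymphocyte list was 10.0 to 17.2 CPM in Hyperloaded and 2.93 to 7.74 CPM in Control libraries, so the groups did not overlap. Of 3 neutrophil genes, edgeR called 0 in either direction, 1 had an unadjusted p under 0.05, DESeq2 called 0, and limma voom called 2 higher and 1 lower. They were CSF3R, given before, CHI3L1 (log2 fold-change −1.60) and MMP8 (1.19), and the list summed to 4.70 to 130.9 CPM in Hyperloaded and 26.3 to 159.1 CPM in Control libraries. In the dendritic cell list, CD209, a lectin that tissue macrophages also carry, rose by 4.58 with overlap between the groups, and XCR1 (0.15) did not pass. With no count minimum the chemokine receptor CCR7 was higher as well (2 to 22 counts in Hyperloaded and 0 to 4 in Control libraries, log2 fold-change 3.18, adjusted p = 0.0263 from edgeR).
Among the tested markers of osteoclasts, red cells, mast cells and vessels, 0 genes were called higher. Only 2 of the 8 osteoclast genes in the table were tested, and with no count minimum CALCR, the calcitonin receptor, was higher (1 to 42 counts in Hyperloaded and 0 to 4 counts in Control libraries, log2 fold-change 4.01, adjusted p = 0.0168 from edgeR). The tested osteoclast genes NFATC1 (log2 fold-change 0.80) and TNFRSF11A (−0.23) and the red cell genes SLC4A1 (−0.35), ALAS2 (−0.72) and HBB (−0.39) gave 0 calls by edgeR, 0 at an unadjusted p under 0.05, and 0 by DESeq2 or limma voom. GATA2 of mast cells fell by 1.24, with every Hyperloaded library below every Control library, and KIT (−0.57) did not pass with edgeR (adjusted p = 0.265) but was called lower by limma voom (adjusted p = 0.0362). Of 7 endothelial genes 0 rose and 3 fell by edgeR (4 by limma voom), with the receptor TIE1 at −0.72, the junction protein ESAM at −0.88 and PECAM1 at −0.75.
The tissue's own cell markers differed as well. Of 9 chondrocyte genes 0 rose and 2 fell by edgeR, COL11A2 with a log2 fold-change of −2.22 and COL11A1 of −1.29, while ACAN, the proteoglycan aggrecan, was at −2.12 without passing (adjusted p = 0.0581 from edgeR). The chondrocyte median was −2.16, 6 of the 9 had an unadjusted p under 0.05, and DESeq2 called 4 and limma voom 8 of them lower. Of 8 genes of the outer annulus and tendon, THBS4 (2.00), MKX (0.87) and TNMD (3.57) rose, and 1 fell, the collagen COL3A1 (−1.76). All 5 skeletal muscle genes rose by edgeR and DESeq2 but only ACTA1 and ENO3 by limma voom, and the summed levels of Hyperloaded replicates 1, 4 and 5 lay within the Control range given before. With edgeR, ENO3, TCAP and MYOZ1 had log2 fold-changes of 6.45, 7.07 and 7.51 with overlap between the groups. In the smooth muscle list DES, which skeletal muscle shares, rose by 6.63 and CNN1 by 1.64, and CSPG4 fell by 1.32. The adipocyte factor PPARG, which macrophages also express, rose by 2.62 and CIDEC (0.94) did not pass, and with no count minimum PLIN1, the perilipin of fat droplets, was higher (5.49, adjusted p = 0.0162 from edgeR). Of the ubiquitously expressed genes, GAPDH (1.06) and ACTB (0.38) did not pass with edgeR, and limma voom called ACTB higher (adjusted p = 0.0336).

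**Figure D5:**
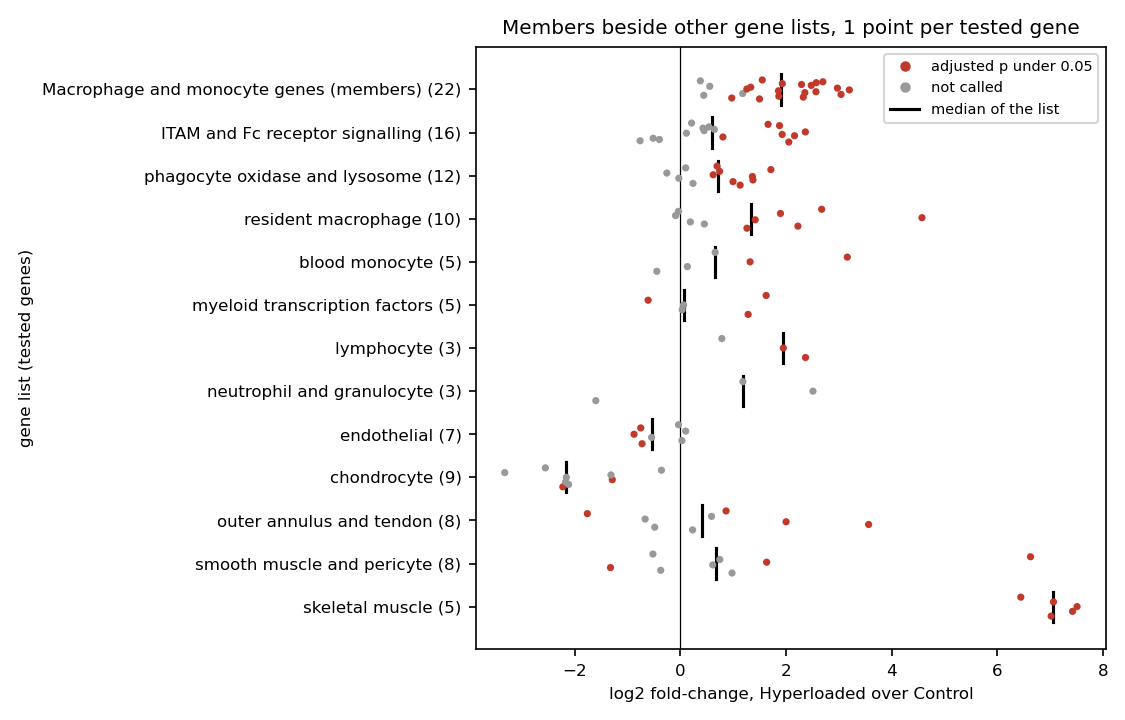
Log2 fold-change of Hyperloaded over Control for the members and for 12 other gene lists, with 1 point per tested gene, red where the adjusted p was under 0.05, and a black bar at the median of the list. The members have a median of 1.90, between the chondrocyte list at −2.16 and the skeletal muscle list at 7.07.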

How the data were processed

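Poly(A) RNA libraries of 12 wedges were sequenced by the authors, who converted base calls with CASAVA, mapped to Sscrofa11.1 by JMP Genomics with 2 mismatches allowed, and deposited expected counts per gene, which are not normalized and can share a read between genes. Of the values above 0, 0.0304 to 0.0789% in a library were whole (within 1e-06), and all values were rounded. Totals were 12483998 to 19298022 counts in Hyperloaded and 12519251 to 24896924 in Control libraries, which limits precision for members with few counts. The authors' own analysis used TPM values, which were not used here. The table of symbols belongs to a later annotation (3819 of its identifiers lie above the highest in the counts) and names 11700 rows (52.7%). Of the 22198 rows, 3179 had no counts in any library.

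A gene was tested if all libraries of either group had 10 or more counts, the filter of the study, which left 12597. Libraries were scaled by TMM, and groups were compared by the 2-sided quasi-likelihood F test of edgeR 4.0.16 (R 4.3.3) with p-values adjusted over all 12597 genes by the method of Benjamini and Hochberg and no covariate, since the labels give no pig, sex, mass or loading interval. A call is an adjusted p under 0.05. Standard errors are the log2 fold-change over the root of F. Log2 CPM used a prior count of 2. No test of a list was run. Within a group, no 2 libraries differed by as little as sampling noise (chi-square per degree of freedom of at least 64.6 between Hyperloaded and 30.7 between Control libraries). On simulated counts with 6 against 6 libraries and 12279 genes, the fit called 6 of 65 genes changed 1.5-fold, 40 of 66 changed 2-fold and 56 of 62 changed 4-fold, so smaller changes were often missed.

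The members, lists and rules for named genes were chosen with earlier results of these data known. All members are named, and in each other list the 3 tested genes with the smallest p, except that 2 genes and 1 promoter window are not reported here. The other lists hold myeloid transcription factors, growth factors, ITAM and Fc receptor signalling, oxidase and lysosome, and markers of other cell types. The fit was repeated with other scalings, filters and tools (DESeq2 1.42.0, voom of limma 3.58.1), with the replicate number as a term, without libraries, and at the thresholds of the study, an unadjusted p of at most 0.01 and 2-fold. Correlations used numpy 2.4.6, with ranks and adjustment from scipy 1.17.1, in Python 3.11.15, and plots matplotlib 3.10.9.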

Additional observations from a re-analysis of the deposited data

Results flagged for a closer look

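Among the 22 tested members in 2 groups of 6 libraries each, 44 sets of values were examined with Dixon's criterion at the 95% level. The criterion flags a library far from the rest of its group, and 2 sets were flagged. Chance gives about 1 flag in 20 sets, so 2 of 44 is near what chance alone would give. ITGB2, the beta chain of leukocyte integrins, was lowest in Hyperloaded replicate 2, with a log2 CPM of 3.13 (8.63 CPM) and the next library at 3.61. PTPRC, the gene of CD45, was lowest in Hyperloaded replicate 5, with a log2 CPM of 2.90 (7.36 CPM) and the next library at 3.63. Hyperloaded replicate 2 held the highest level of skeletal muscle transcripts and Hyperloaded replicate 5 was the lowest library of its group for 11 of the 22 members, and the part of either in these values was not tested.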

How the results depend on the processing

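The number of members called higher stayed within 17 to 20 under the other normalizations, filters, tools and thresholds and with each library left out in turn (17 to 19), and 0 were called lower in any of them. It was 13 without the 3 libraries with no raw data (CSF1R, CD68, FCER1G, PTPRC and ITGB2 lost their calls, with adjusted p from 0.0508 to 0.0854 from edgeR), 9 with Hyperloaded replicates 1, 2, 4 and 5 alone and 1 without Hyperloaded replicates 2, 3 and 6. These fits hold fewer libraries. The choice of Hyperloaded replicates 2, 3, 4 and 6 gave 20 members, and it also had the most genes called higher over all genes among the choices of 4. The cause of these differences was not tested. Over the settings other than the choices of 4 Hyperloaded libraries, single members gained a call 7 times, lost one 26 times and changed sign 0 times. Over all genes, the counts called higher and lower were 1361 and 1065, and 1969 and 327 with library size only, which moved the median log2 fold-change of all genes to 0.28 and that of the members to 2.07. The share of higher calls moved with scaling, and upper quartile factors gave 1129 higher and 1419 lower. The counts were 1823 and 1829 with limma voom, 742 and 320 at the thresholds of the study, 127 and 40 without Hyperloaded replicates 2, 3 and 6, 260 and 156 with Hyperloaded replicates 1, 2, 4 and 5, 2139 and 1911 with replicates 2, 3, 4 and 6, and 724 to 1767 and 512 to 1490 with 1 library left out.

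With the replicate number as a block, 18 members were called higher and 0 lower, and over all genes 950 and 794. The numbers do not pair the samples, which come from different pigs, as same-numbered libraries had deviations with r from −0.121 to 0.263 and 3 of the 6 matched their own number best. The block changed no member's call.

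The median r between members in Hyperloaded libraries was 0.291, and 0.546 with library size only and 0.229 to 0.397 with 1 library left out. In Control libraries it was 0.772, and 0.600 with Spearman's rho and 0.477 to 0.849 with 1 library left out.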
